A study of Mus musculus with 6 samples.

Results

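Genes of cholesterol synthesis, uptake and efflux were followed in mouse aorta. They were 34 of the 29752 genes in the deposited tables, chosen as a module and matched there by gene symbol: 18 enzymes of sterol synthesis, 5 genes of sterol sensing and intracellular control, 5 genes of lipoprotein and fatty acid uptake, and 6 genes of efflux and its regulation. Poly-A RNA was sequenced from aortas of C57BL/6 mice aged 15 weeks that had eaten a normal diet for 7 weeks, starting at 8 weeks of age. One group was wild type (3 libraries) and the other carried the genotype PALMD+/-, heterozygous for Palmd, which encodes palmdelphin (3 libraries). The labels name no other treatment. They do not say how the Palmd allele was made, nor that each library was a different mouse, and p-values here therefore cover the variation among these samples, which may be technical.

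Cholesterol is built from acetyl-CoA through mevalonate, isoprenoids and squalene, and the sterol rings are then trimmed by a chain of enzymes in the endoplasmic reticulum. When membrane sterol is low, SCAP carries the transcription factor SREBP2 to the Golgi, where it is cut and released to activate the enzyme genes, and INSIG proteins hold the complex back when sterol is plentiful. Excess cholesterol forms oxysterols that activate the LXR receptors, which raise the exporters ABCA1 and ABCG1. In the arterial wall these routes are known mainly for the loading of macrophages and smooth muscle cells with lipoprotein cholesterol.

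The libraries had between 17283951 and 18372131 reads behind their values and between 21484 and 22565 genes above 0. FPKM (reads scaled by exon length and by the total of the library) is the unit of every level below, and 1 read on a gene of 2 kb was worth 0.0272 to 0.0289 FPKM. The aorta label held for Acta2 and Pecam1. The smooth muscle actin Acta2 was at 3701 to 8367 FPKM and the endothelial marker Pecam1 at 72.0 to 424 FPKM. Both were lowest in heterozygote 2. It did not hold for every marker: Tagln, another smooth muscle marker, was listed at only 2.12 to 4.29 FPKM, and the cause was not tested. Fat was also present in every library, with the white adipocyte hormone Adipoq at 85.3 to 325 FPKM and the brown adipocyte uncoupling protein Ucp1 at 34.9 to 790.3 FPKM. Heterozygote 2 stood apart: its mean correlation with the other libraries was 0.930, against 0.960 to 0.971 for the others, and the results are therefore also given without it. Palmd was at 5.49, 7.88 and 10.1 FPKM in wild type 1 to 3 and at 5.31, 7.19 and 6.21 FPKM in heterozygote 1 to 3. The groups overlapped, and limma put its log2 fold change at -0.26 (SE 0.21, adjusted p = 0.915), so the transcript did not separate the genotypes. Which part of the gene is altered is not given, so this level does not check the labels.

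The promoters of the enzyme genes are shown first because most of them carry the same short word. RefSeq promoter sequences (GRCm38.p6, 250 bases before to 50 bases after each start) were found for 27 of the 34 genes. The word CCAAT, searched on both strands and bound by the factor NF-Y, a known partner of SREBP2, was in the promoters of 14 of 15 matched enzyme genes (93.3%), 3 of 4 control genes, 2 of 3 uptake genes and 1 of 5 efflux genes. Among all 27025 genes of the promoter table it was in 41.1%. The sterol response element word TCACNCCAC, on exact letters with N for any base, was in Hmgcs1 alone of the 27 genes and in 1.44% of all genes. Elements spelled otherwise, or lying outside these bases, were not searched for. The E-box CACGTG was in 3 of 15 enzyme genes, 2 of 4 control genes, 0 of 3 uptake genes and 1 of 5 efflux genes, against 8.09% of all genes. The direct repeat of AGGTCA that LXR binds was found in none of the 27 promoters, on exact letters, and in 0.0148% of all genes. The 150 bases before the start are printed 5′ to 3′ on the gene's own strand for 5 genes, with matches to these words on either strand in capitals. Hmgcs1 (chr13:119690201-119690350, plus strand), Sc5d (chr9:42264301-42264450, minus strand) and Insig1 (chr5:28071262-28071411, plus strand) varied widely between libraries, while Mvk (chr5:114444119-114444268, plus strand) varied less and Ebp (chrX:8193513-8193662, minus strand) was nearly flat.
Hmgcs1: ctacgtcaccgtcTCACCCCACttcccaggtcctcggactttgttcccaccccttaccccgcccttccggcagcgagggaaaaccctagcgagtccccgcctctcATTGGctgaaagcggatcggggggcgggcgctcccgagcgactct
Mvk: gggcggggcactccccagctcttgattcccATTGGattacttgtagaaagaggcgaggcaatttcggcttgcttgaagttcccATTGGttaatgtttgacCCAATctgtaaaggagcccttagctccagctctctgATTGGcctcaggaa
Sc5d: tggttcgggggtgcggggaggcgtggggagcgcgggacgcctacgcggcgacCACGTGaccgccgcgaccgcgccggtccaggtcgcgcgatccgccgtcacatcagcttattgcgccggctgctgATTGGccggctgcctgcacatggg
Insig1: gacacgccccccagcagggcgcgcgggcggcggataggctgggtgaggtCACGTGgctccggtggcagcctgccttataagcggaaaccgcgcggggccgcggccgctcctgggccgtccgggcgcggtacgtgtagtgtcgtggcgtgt
Ebp: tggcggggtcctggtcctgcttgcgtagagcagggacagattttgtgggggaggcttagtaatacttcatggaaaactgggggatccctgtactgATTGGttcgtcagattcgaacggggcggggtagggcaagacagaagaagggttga
Hmgcs1 holds 1 CCAAT match and 1 sterol response element match in this window, Sc5d 1 CCAAT match and 1 E-box, Insig1 1 E-box, Mvk 4 CCAAT matches and Ebp 1 CCAAT match. A match is a description of the letters, not a measured binding site, and CCAAT stood in variable and flat enzyme genes alike. The 1 matched enzyme gene without CCAAT, Acat2, was among the variable ones.

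No gene of the module passed the test between the genotypes. Levels were compared by limma on log2(FPKM + 1) across the 12620 genes that reached 1 FPKM in 3 libraries or more, with Benjamini-Hochberg adjustment over all of them. All genes but Fdps passed this filter, which leaves 33 tested. Of these, 0 had an adjusted p under 0.05, and their smallest adjusted p was 0.920. Among all genes tested the share called was also 0%, with a smallest adjusted p of 0.231. At an unadjusted p under 0.05, 0 of the 33 genes stood out, against 6.50% of all genes tested. The 3 heterozygous libraries lay wholly above or below the wild type for 0 of 33 genes, against 12.9% of all genes. A negative log2 fold change was found for 18 of the 33 and for 46.9% of all genes tested. The median log2 fold change was -0.12 over 17 enzymes, -0.01 over 5 control genes, 0.07 over 5 uptake genes and 0.05 over 6 efflux genes, and 0.01 over all genes tested. Fewer cells of a type and less RNA per cell cannot be told apart in these bulk samples.

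**Figure D1:**
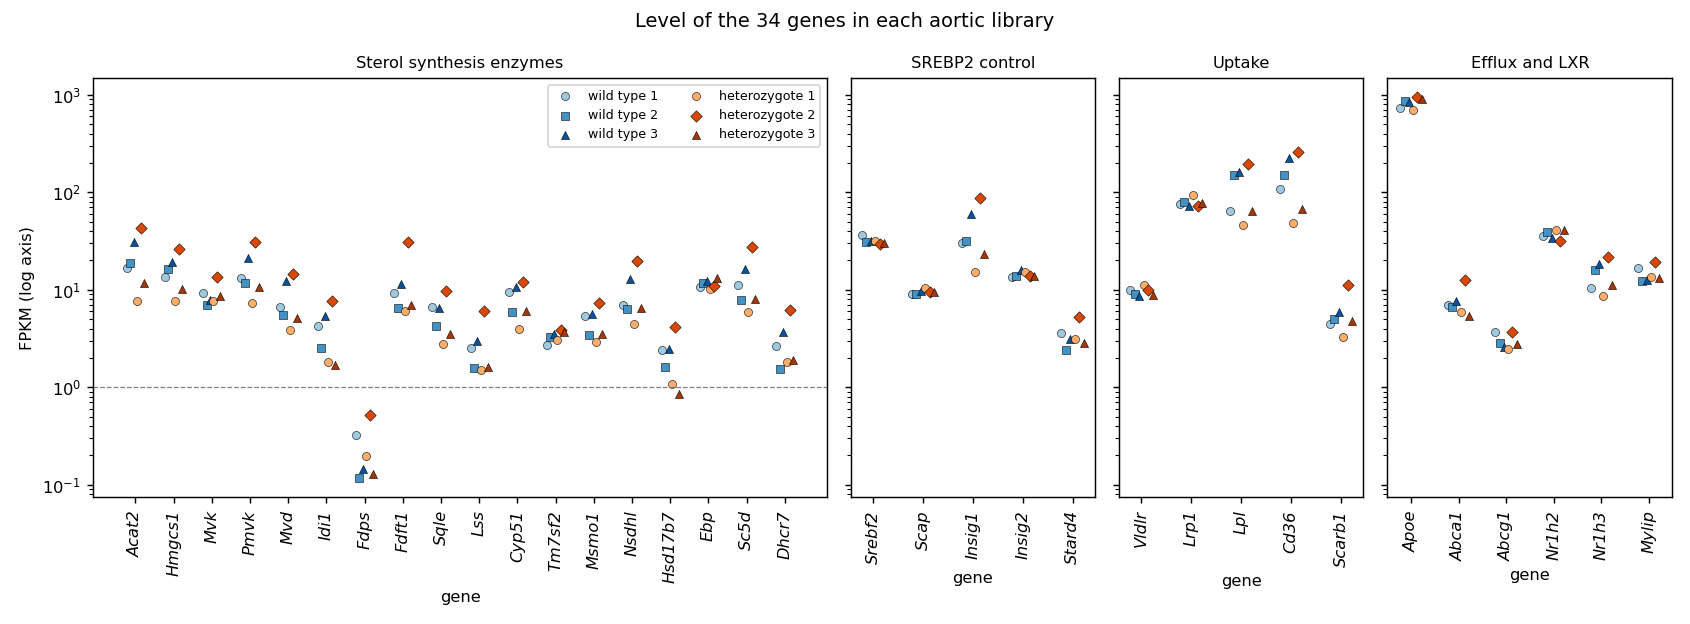
FPKM (log axis) of each of the 34 genes in each of the 6 libraries, by class, with wild type libraries in blue and heterozygous libraries in orange and red. The dashed line marks 1 FPKM. Heterozygote 2 (diamonds) is the highest library for 25 of the 33 tested genes, and Fdps lies below the line in all 6 libraries.

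The plot of levels by library shows the pattern that the rest of the comparison turns on: the libraries of a genotype lay far apart for most enzymes and for Insig1, and close together for Srebf2, Scap, Insig2 and a few enzymes. Acat2, which joins acetyl-CoA units at the entry to the pathway, was at 16.8, 18.9 and 30.8 FPKM in wild type 1 to 3 and at 7.64, 42.7 and 11.7 FPKM in heterozygote 1 to 3. The heterozygous libraries held both the highest value and the lowest values, and the wild type lay between them. Group means were 22.2 ± 7.54 and 20.7 ± 19.2 FPKM (SD, n = 3 each), and limma put the log2 fold change at -0.41 (SE 0.60, interval -1.84 to 1.02 at 95%, adjusted p = 0.953, exact permutation p = 0.6). The interval spans 0.279-fold to 2.03-fold, so differences within that range are not excluded. An exact permutation p cannot go below 0.1 with 3 libraries against 3. Hmgcs1, the HMG-CoA synthase of the next step, was at 13.6, 16.4 and 19.2 FPKM in wild type 1 to 3 and at 7.69, 26.3 and 10.2 FPKM in heterozygote 1 to 3. Again the wild type lay inside the range of the heterozygotes (log2 fold change -0.32 ± 0.42, SE).

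Mvk, mevalonate kinase, was the enzyme with the smallest p. It was at 9.33, 6.98 and 7.85 FPKM in wild type 1 to 3 and at 7.60, 13.4 and 8.60 FPKM in heterozygote 1 to 3. Only heterozygote 2 lay above the wild type range. Group means were 8.05 ± 1.19 and 9.86 ± 3.10 FPKM (SD, n = 3 each), and limma put the log2 fold change at 0.23 (SE 0.21, interval -0.28 to 0.75 at 95%, adjusted p = 0.924, exact permutation p = 0.5). The other kinase, Pmvk, was at 13.2, 11.8 and 21.2 FPKM in wild type 1 to 3 and at 7.39, 30.8 and 10.7 FPKM in heterozygote 1 to 3. It therefore had the pattern of Acat2 and Hmgcs1 rather than the narrower one of Mvk. Mvd, which makes isopentenyl diphosphate, ranged from 3.89 to 14.5 FPKM over the 6 libraries, and its isomerase Idi1 from 1.70 to 7.76 FPKM. Both were lowest in the heterozygotes other than heterozygote 2, in which they were highest.

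Fdps, the farnesyl diphosphate synthase, was low for an enzyme of this chain: 0.325, 0.116 and 0.145 FPKM in wild type 1 to 3 and 0.195, 0.522 and 0.130 FPKM in heterozygote 1 to 3. These values correspond to 9 to 38 reads per library. Its transcript is 98.9% identical over 1062 bases to the pseudogene Gm3571, which was listed at 1.91, 1.28 and 2.83 FPKM in wild type 1 to 3 and at 1.29, 5.08 and 1.86 FPKM in heterozygote 1 to 3. Fdps has other near copies, among them Gm43738 (100% over 677 bases), Gm5873 (96.9% over 1056 bases) and Gm8163 (96.1% over 1062 bases). Reads may have been divided among these genes or dropped, so the level of Fdps is uncertain. Gm3571 was also highest in heterozygote 2 and next highest in wild type 3.

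In the squalene steps, Fdft1 had the highest ratio of heterozygote 2 to the wild type mean of the tested genes of the module. Fdft1, squalene synthase, was at 9.37, 6.50 and 11.6 FPKM in wild type 1 to 3 and at 6.10, 31.1 and 6.90 FPKM in heterozygote 1 to 3. Heterozygote 2 was 3.40 times the wild type mean, while the other heterozygotes lay at the bottom of the wild type range or below it. Fdft1 shares 774 bases of exon with the abundant protease gene Ctsb on the opposite strand (162 to 213 FPKM), and the library kit is not stated to keep strand, so its value may hold reads of Ctsb. Sqle, the squalene epoxidase, was at 6.64, 4.26 and 6.48 FPKM in wild type 1 to 3 and at 2.80, 9.68 and 3.49 FPKM in heterozygote 1 to 3. Lss, the lanosterol synthase, ranged from 1.52 to 6.01 FPKM with the same library on top.

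Among the enzymes that convert lanosterol to cholesterol, 6 of the 8 tested shared the wide spread. Cyp51, the lanosterol demethylase, was at 9.41, 5.93 and 10.7 FPKM in wild type 1 to 3 and at 3.99, 12.1 and 5.99 FPKM in heterozygote 1 to 3. Sc5d, the sterol desaturase, was at 11.3, 7.76 and 16.3 FPKM in wild type 1 to 3 and at 5.94, 27.2 and 8.08 FPKM in heterozygote 1 to 3. Both had the order of Acat2, with heterozygote 2 first, wild type 3 next and heterozygote 1 last. Msmo1 (2.91 to 7.31 FPKM), Nsdhl (4.47 to 19.7 FPKM) and Hsd17b7 (0.858 to 4.19 FPKM), which remove the methyl groups at the same carbon of the ring, were also highest in heterozygote 2. So was the last reductase, Dhcr7 (1.54 to 6.20 FPKM). The exceptions were Ebp and Tm7sf2. Ebp, the sterol isomerase, was at 10.8, 11.7 and 12.4 FPKM in wild type 1 to 3 and at 10.1, 10.9 and 13.1 FPKM in heterozygote 1 to 3, with a log2 fold change of -0.03 ± 0.12 (SE, 95% interval -0.33 to 0.26). Tm7sf2, a sterol reductase, ranged from 2.69 to 3.84 FPKM, and 532 bases of its exons are shared with Vps51 on the same strand. Near copies or shared exons also make other genes uncertain in part. Acat2 is 98.3% identical to Acat3 (0.163 to 1.35 FPKM) over 1441 bases. It is also 99.1% identical to Tcp1 (22.4 to 28.8 FPKM) over 435 bases. Dhcr7 is 98.6% identical to Dhtkd1 (0.782 to 2.48 FPKM) over 220 bases, and Idi1 97.7% identical to Gm35570 over 681 bases. Exons are shared on the opposite strand by Cyp51 (166 bases with Akap9), Hmgcs1 (458 bases with Gm48342) and Lss (150 bases with 4930483K19Rik). Idi1 shares 323 bases with Gm48574, and the control gene Scap 327 bases with 5830462I19Rik, also on the opposite strand.

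**Figure D2:**
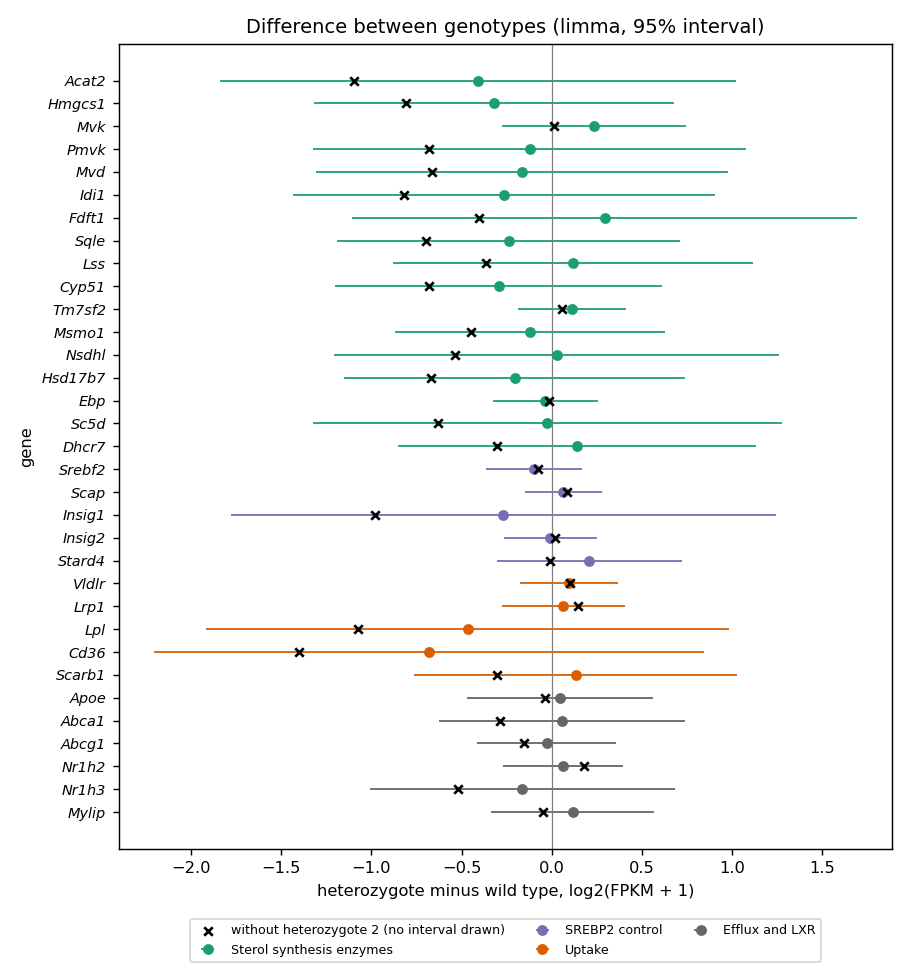
Log2 fold change (heterozygote minus wild type, on log2(FPKM + 1)) of each of the 33 tested genes with its 95% interval from limma (coloured points and lines), and the value without heterozygote 2 (crosses, no interval drawn). All 33 intervals cross 0, and 26 of 33 crosses lie below 0.

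The genes that sense sterol were flat except for Insig1, as the plot of differences with intervals shows by the width of its lines. Srebf2, which encodes SREBP2, was at 36.4, 30.7 and 31.7 FPKM in wild type 1 to 3 and at 31.8, 29.6 and 30.4 FPKM in heterozygote 1 to 3. Its log2 fold change was -0.10 ± 0.11 (SE, 95% interval -0.36 to 0.17), and no library was more than 1.23 times another. Scap, its escort, ranged from 9.01 to 10.3 FPKM (log2 fold change 0.06 ± 0.09, SE, 95% interval -0.15 to 0.28). Transcript levels do not measure the cutting of SREBP2, by which it is activated. Insig2, a retention protein, ranged from 13.4 to 15.9 FPKM.

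Insig1, the other retention protein and itself a known SREBP target, had the highest mean of the sensing genes. It was at 30.1, 31.8 and 59.3 FPKM in wild type 1 to 3 and at 15.4, 86.8 and 23.5 FPKM in heterozygote 1 to 3. The 2 highest libraries were heterozygote 2 and wild type 3, and the groups overlapped. Group means were 40.4 ± 16.4 and 41.9 ± 39.1 FPKM (SD, n = 3 each), and limma put the log2 fold change at -0.27 (SE 0.63, interval -1.78 to 1.25 at 95%, adjusted p = 0.974, exact permutation p = 0.8). Its highest library was 5.64 times its lowest, against 1.19 times for Insig2. Stard4, a cytosolic sterol carrier, was at 3.58, 2.41 and 3.15 FPKM in wild type 1 to 3 and at 3.14, 5.25 and 2.85 FPKM in heterozygote 1 to 3. Apart from heterozygote 2 its libraries lay within the wild type range. Limma put its log2 fold change at 0.21 (SE 0.21, interval -0.31 to 0.72 at 95%, adjusted p = 0.929, exact permutation p = 0.6).

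Uptake genes formed a flat set and a variable set. The lipoprotein receptors Lrp1 and Vldlr were flat. Lrp1, a large receptor that takes up remnant lipoproteins and many other ligands, was at 76.6, 80.3 and 72.8 FPKM in wild type 1 to 3 and at 93.2, 71.5 and 77.1 FPKM in heterozygote 1 to 3. Vldlr ranged from 8.70 to 11.2 FPKM, and neither receptor was highest in heterozygote 2. The lipid handling genes of fat and muscle were variable. Cd36, a fatty acid translocase and scavenger receptor with the highest mean and the smallest p of the class, was at 108, 149 and 223 FPKM in wild type 1 to 3 and at 48.6, 259.7 and 67.1 FPKM in heterozygote 1 to 3. Heterozygotes 1 and 3 lay below every wild type library and heterozygote 2 above all of them. Group means were 159.7 ± 58.2 and 125 ± 117 FPKM (SD, n = 3 each), and limma put the log2 fold change at -0.68 (SE 0.63, interval -2.21 to 0.84 at 95%, adjusted p = 0.924, exact permutation p = 0.5). Lpl, the lipase that frees fatty acids from circulating triglyceride, was at 64.2, 152 and 161 FPKM in wild type 1 to 3 and at 46.3, 197 and 64.3 FPKM in heterozygote 1 to 3. Wild type 1 here lay with the low heterozygotes. Scarb1, the HDL receptor, ranged from 3.25 to 5.89 FPKM outside heterozygote 2 and was at 11.2 FPKM in it.

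Efflux genes varied less. Apoe, the apolipoprotein that accepts exported cholesterol, had the highest level of the module and was at 737, 857 and 843 FPKM in wild type 1 to 3 and at 695, 937 and 900.4 FPKM in heterozygote 1 to 3. Group means were 812 ± 66.0 and 844 ± 130.4 FPKM (SD, n = 3 each), and limma put the log2 fold change at 0.05 (SE 0.21, interval -0.47 to 0.56 at 95%, adjusted p = 0.989, exact permutation p = 0.7). The groups overlapped. Abca1, the exporter to lipid-poor apolipoprotein, was at 6.98, 6.69 and 7.60 FPKM in wild type 1 to 3 and at 5.88, 12.5 and 5.38 FPKM in heterozygote 1 to 3. The wild type was tight, and all 3 heterozygous libraries lay outside its range, but on both sides of it. Abcg1, the exporter to HDL, ranged from 2.46 to 3.70 FPKM.

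The LXR receptors differed from each other in spread. Nr1h2, which encodes the widely expressed LXR beta, was at 35.5, 39.2 and 34.2 FPKM in wild type 1 to 3 and at 41.5, 32.0 and 40.9 FPKM in heterozygote 1 to 3. It was the one tested gene of the module with heterozygotes 1 and 3 above every wild type library. Nr1h3, which encodes the LXR alpha of liver, fat and macrophages, was at 10.4, 16.0 and 18.2 FPKM in wild type 1 to 3 and at 8.64, 21.8 and 11.1 FPKM in heterozygote 1 to 3. Its order of libraries was that of Lpl. Mylip, the LXR-induced ligase that removes lipoprotein receptors and the efflux gene with the smallest p, was at 16.9, 12.2 and 12.6 FPKM in wild type 1 to 3 and at 13.5, 19.0 and 13.1 FPKM in heterozygote 1 to 3. The groups overlapped (means 13.9 ± 2.58 and 15.2 ± 3.32 FPKM, SD, n = 3 each). Limma put its log2 fold change at 0.12 (SE 0.19, interval -0.33 to 0.57 at 95%, adjusted p = 0.958, exact permutation p = 0.5). Genes given by library other than Acat2, Mvk, Insig1, Stard4, Cd36, Apoe and Mylip, which a rule on level and p selected, were chosen after their values were seen.

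**Figure D3:**
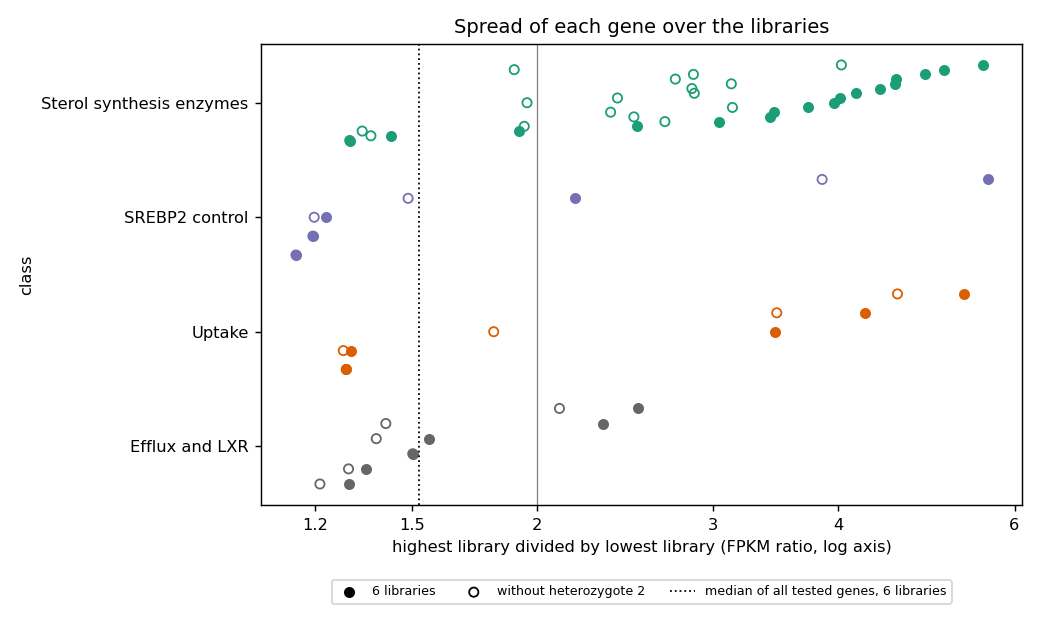
Highest library divided by lowest library (FPKM ratio, log axis) for each of the 33 tested genes, by class, over all 6 libraries (filled) and without heterozygote 2 (open). The dotted line is the median of all tested genes, 1.52, and the solid line marks 2-fold, which 14 of 17 enzymes exceed with all 6 libraries and 11 of 17 without heterozygote 2.

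The spread between libraries was compared gene by gene, without regard to genotype. The highest library was at least 2-fold above the lowest for 14 of 17 enzymes, 2 of 5 control genes, 3 of 5 uptake genes and 2 of 6 efflux genes, against 25.4% of all genes tested. The median ratio of highest to lowest library was 3.96 for the enzymes, 1.23 for the control genes, 3.46 for the uptake genes and 1.53 for the efflux genes, and 1.52 for all genes. The plot of these ratios shows a flat set near the median of all genes and a variable set well above it. Without heterozygote 2 the ratio still reached 2-fold for 11 enzymes and 15 genes of the module, against 13.3% of all genes.

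The variable genes shared an order of libraries. Heterozygote 2 was the highest library for 16 of 17 enzymes, 2 of 5 control genes, 3 of 5 uptake genes and 4 of 6 efflux genes, against 26.4% of all genes. It was highest with wild type 3 second for 13 enzymes and 19 of the 33 genes, against 11.6% of all genes. Heterozygote 1 was the lowest library for 12 enzymes and 19 genes of the module, against 14.7% of all genes. Summed over the enzymes, the level was 134, 116 and 185 FPKM in wild type 1 to 3 and 79.9, 274 and 104 FPKM in heterozygote 1 to 3. Heterozygotes 1 and 2 thus lay farther apart than any wild type library lay from any heterozygous one. Within the wild type, which is apart from heterozygote 2, wild type 3 was the highest for 15 of 17 enzymes and 23 of 33 genes, against 31.1% of all genes. These counts describe 6 libraries that all genes share, and the genes are not independent of each other.

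**Figure D4:**
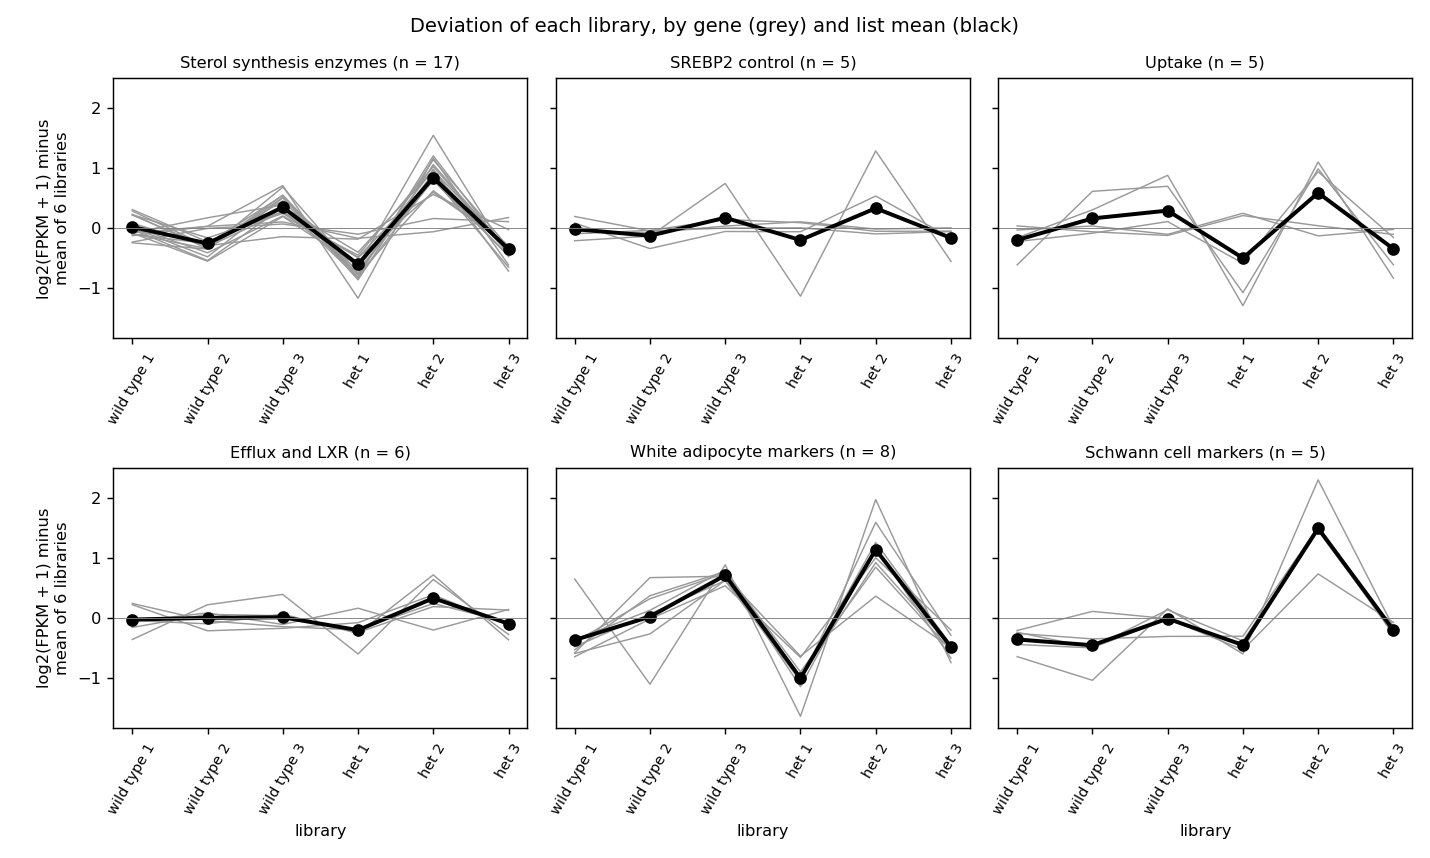
Deviation of each library from the mean of the 6 libraries on log2(FPKM + 1), for each tested gene (grey) and the mean of its list (black), in the 4 classes and in the white adipocyte and Schwann cell marker lists. Heterozygote 2 is the highest point of the black line in all 6 panels, and wild type 3 is second in each.

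Markers of other cell types moved with these levels. Of the 8 white adipocyte markers, all detected in every library, 7 were highest in heterozygote 2 with wild type 3 second, and their summed level was 1545 to 3545 FPKM in the wild type and 1402 to 4596 FPKM in the heterozygotes. Adipoq was at 133, 187 and 299 FPKM in wild type 1 to 3 and at 85.3, 325 and 122 FPKM in heterozygote 1 to 3. The order of its libraries at the top was that of Acat2, Insig1 and Cd36. The 5 brown adipocyte markers summed to 223 to 1006 FPKM in the wild type and 69.1 to 1259 FPKM in the heterozygotes, and 1 of them, Elovl3, was listed at 0 in heterozygote 1. All 5 Schwann cell markers were highest in heterozygote 2, with a sum of 14.3 to 20.7 FPKM in the wild type and 13.1 to 70.7 FPKM in the heterozygotes. Macrophage markers, 8 of 8 tested, summed to 324 to 409 FPKM and 348 to 471 FPKM in the respective groups. Only 1 of the 8, Cd163, was highest in heterozygote 2 with wild type 3 second. Of the 7 endothelial markers, 5 were lowest in heterozygote 2, while Kdr was highest there (14.6 FPKM, against 3.43 to 5.42 FPKM). The sum over the list was 221 FPKM in heterozygote 2, against 638 FPKM or more in the other libraries. Pecam1 was the largest single part of the sum in every library. The summed level of the smooth muscle markers was also lowest in heterozygote 2 (4726 FPKM, against 7071 FPKM or more). The part of these cell types in the levels of the module was not tested. Fibroblast markers summed to 2334 to 2947 FPKM in the wild type and 2552 to 3085 FPKM in the heterozygotes, erythrocyte markers to 85.5 to 390.1 FPKM and 98.3 to 275 FPKM, and skeletal muscle markers to 3.92 FPKM or less in every library. Of the liver markers, 1 of 5 passed the filter, Cyp2e1 at 133 to 352 FPKM with wild type 3 highest and heterozygote 2 next, and the defining Alb stayed at 0.935 FPKM or less.

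The profiles were not the same in every respect, as the plot of library deviations shows for the wild type. Wild type 2 lay below wild type 1 for 13 of 17 enzymes, 3 of 5 control genes, 1 of 5 uptake genes and 3 of 6 efflux genes, against 58.1% of all genes tested. Among the white adipocyte markers 1 of 8 had this order, the hormone gene Lep (12.5, 3.00 and 14.9 FPKM in wild type 1 to 3), and among the brown adipocyte markers 0 of 5. Cd36, Lpl and Nr1h3 were lower in wild type 1 than in wild type 2, like most of the fat markers. So were Lrp1, Scarb1, Apoe, Nr1h2, Insig1, Insig2 and the enzymes Acat2, Hmgcs1, Tm7sf2 and Ebp. The other 13 tested enzymes, among them Idi1, Sqle, Cyp51 and Sc5d, were higher in wild type 1. This difference rests on 2 libraries and was not tested.

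Leaving out heterozygote 2 turned most of the module toward lower values in the heterozygotes, without a call. That library was the highest for 25 of the 33 genes, so lower fold changes of these genes follow from leaving it out. The genes also share an order of libraries, so the counts below are not independent of each other. A negative log2 fold change was then found for 26 of 33 genes, against 43.4% of the 12385 genes tested in that fit. The median was -0.63 over the enzymes, -0.01 over the control genes, -0.30 over the uptake genes and -0.10 over the efflux genes, and 0.03 over all genes. Heterozygotes 1 and 3 lay below every wild type library for 10 of the 33 genes, 7 of them enzymes, against 12.3% of all genes. At an unadjusted p under 0.05, 11 genes were lower and 0 higher, against 6.02% of all genes for lower values and 13.9% for either direction. They were the enzymes Acat2, Hmgcs1, Pmvk, Idi1, Sqle, Cyp51 and Hsd17b7, with Insig1, Lpl, Cd36 and Abca1. By limma, Cd36 was at -1.40 on the log2 scale (SE 0.30, adjusted p = 0.239) and Hmgcs1 at -0.81 (SE 0.17, adjusted p = 0.237). No gene of the module and 0% of all genes reached an adjusted p under 0.05. White adipocyte markers moved in the same direction, with a median of -0.88 without heterozygote 2 against -0.33 with all 6 libraries. Leaving out heterozygote 1 moved the median of the enzymes the other way, to 0.17.

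**Figure D5:**
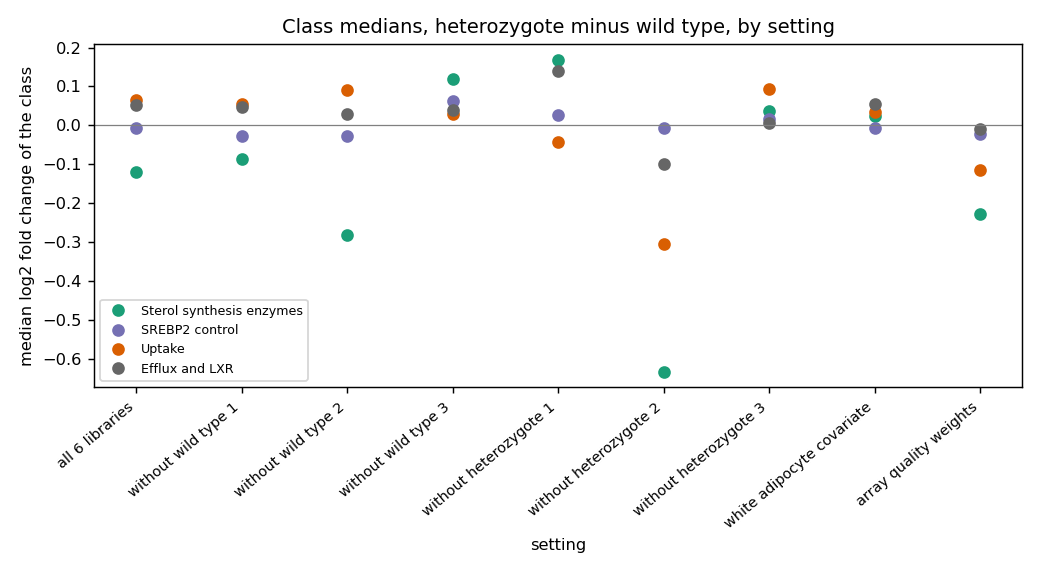
Median log2 fold change (heterozygote minus wild type) of each class with all 6 libraries, without each library in turn, with the white adipocyte level as a covariate, and with library quality weights. The median of the enzymes (green) runs from -0.63 without heterozygote 2 to 0.17 without heterozygote 1, and the control genes stay near 0.

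With the level of the white adipocyte markers as a covariate, 0 of 33 genes and 0% of all genes were called, and 2 of 33 had an unadjusted p under 0.05 (Cd36 and Scarb1), against 18.9% of all genes. The median of the enzymes was then 0.02, as the plot of class medians by setting shows. Quality weights were 0.170 for heterozygote 2, 3.59 for heterozygote 3 and 3.11 for wild type 2, and 0.668 to 1.04 for the rest. The weighted fit thus leaned mainly on heterozygote 3 and wild type 2. With these weights, limma called 0 of 33 genes and 1.84% of all genes. At an unadjusted p under 0.05 it had 6 of 33 genes, against 26.4% of all genes.

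Genes around the module were read from 6 companion lists. Other sterol enzymes (6 of 7 tested, median log2 fold change -0.05), non-sterol branches of the mevalonate pathway (11 of 12, -0.01), SREBP processing genes (10 of 10, -0.06), other lipoprotein receptors and lipases (9 of 12, 0.05), genes of sterol trafficking and esters (12 of 14, 0.02) and other LXR targets (8 of 8, 0.10) held 0 called genes in either direction. The gene with the smallest p among them was Nus1, a subunit of the transferase that makes dolichol from the isoprenoids of this pathway. It was at 15.9, 15.8 and 16.1 FPKM in wild type 1 to 3 and at 12.7, 11.9 and 12.6 FPKM in heterozygote 1 to 3. The groups did not overlap and heterozygote 2 did not stand apart, unlike in most enzymes of the module. Nus1 was picked for its small p, so the lack of overlap is no separate support. Limma put its log2 fold change at -0.34 (SE 0.09, interval -0.54 to -0.13 at 95%, adjusted p = 0.576, exact permutation p = 0.1, the smallest the design allows). Its catalytic partner Dhdds was at 10.5 ± 0.506 FPKM in the wild type and 11.4 ± 0.110 FPKM in the heterozygotes (SD, n = 3 each; log2 fold change 0.11 ± 0.09, SE). The groups of this partner did not overlap either, in the opposite direction. Of the 11 tested genes of their list, the groups did not overlap for 1 lower and 1 higher gene, against 12.9% of all genes tested. Lrpap1, the chaperone of Lrp1 and its relatives, was at 42.8, 42.8 and 44.6 FPKM in wild type 1 to 3 and at 48.9, 47.7 and 49.1 FPKM in heterozygote 1 to 3 and was not called by limma (adjusted p = 0.861).

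Srebf1 and Scd1, chosen from these lists after their values were seen, also had the order of libraries of the variable enzymes at the top. Srebf1, which encodes the SREBP1 that drives lipogenic genes, was at 33.2, 29.8 and 47.9 FPKM in wild type 1 to 3 and at 22.1, 164 and 31.1 FPKM in heterozygote 1 to 3. Scd1, the stearoyl-CoA desaturase and an SREBP1 and LXR target, was at 633, 448 and 1607 FPKM in wild type 1 to 3 and at 181, 2940.1 and 452 FPKM in heterozygote 1 to 3. Both were highest in heterozygote 2 with wild type 3 second, as in the enzymes of sterol synthesis. The groups of both genes overlapped.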

How the data were processed

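RNA-seq of 6 aortic libraries (3 wild type, 3 PALMD+/-) was used. The deposited tables hold FPKM values calculated by the authors, 1 column per library, with gene symbols. Per the submitters' processing notes, the build was GRCm38 and the tools included TopHat2, Bowtie2 2.2.3 and HISAT2 2.1.0, with no roles stated. The counting tool is not given in the sources used here. FPKM times GENCODE M21 exon length gave whole reads (within 0.01 reads, genes of up to 20 reads) for 95.0% to 95.5% of low genes, which gave the reads behind each library; whether reads or fragments were counted is not stated. Group and number came from the sample titles; the headers inside the files number the heterozygotes differently, within the same group.

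Computed here: limma 3.58.1 (R 4.3.3) with a variance trend on log2(FPKM + 1), a pseudocount that understates changes of low genes, over 12620 genes, Benjamini-Hochberg adjusted at 0.05, no covariate, plus exact two-sided permutation tests of single values. The fit was tested on simulated data. Levels are means ± SD of 3 libraries, and genes with few reads are less precise. Tables were handled with pandas 2.3.3 and numpy 2.4.6 in Python 3.11.15, figures drawn with matplotlib 3.10.9, and near copies searched with minimap2. Promoters came from RefSeq. The genes, the 6 companion lists and 10 marker lists were chosen with earlier results of these data known. Named with full values were, per class, the gene of highest mean and that of smallest p. Alternatives were another pseudocount, other filters, median-of-ratios scaling, voom on the recovered reads, quality weights, an adipocyte covariate, a replicate block and leaving out each library. Some genes of the pathway are not reported here.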

Additional observations from a re-analysis of the deposited data

How the results depend on the processing

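With 3 libraries a group the intervals of the variable genes were wide (0.216-fold to 1.79-fold for Cd36), so the absence of calls sets few limits on them. A pseudocount of 0.1, median-of-ratios scaling and voom on the recovered reads reversed 0 genes of the module and called 0. No filter, or a filter at 5 FPKM (26 genes of the module tested), also called 0, and a filter leaves each fold change as it is. Counted over all genes, limma called 232 with quality weights and 0 to 1 on leaving out each library. Genes of the module with an unadjusted p under 0.05 numbered 0 with all libraries, 2 with the adipocyte covariate, 6 with quality weights and 0 to 11 on leaving out a library (11 without heterozygote 2). The replicate block called 0 genes of the module and 0 of all genes. In this balanced design it leaves each fold change as it is. Deviations of same-numbered libraries from their group means correlated at 0.51, -0.09 and -0.34. Pairs of different number ran from -0.54 (wild type 3 with heterozygote 1) to 0.55 (wild type 3 with heterozygote 2). Whether libraries were paired or shared a batch was not tested.

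Signs reversed with the adipocyte covariate for Pmvk (0.080), Mvd (0.024) and Sc5d (0.19). They reversed with quality weights for Fdft1 (-0.10), Lss (-0.14), Nsdhl (-0.19), Ebp (0.088), Dhcr7 (-0.033), Scarb1 (-0.11) and Abca1 (-0.25); the cause was not tested. On leaving out each library in turn, 26 of 33 genes changed sign at least once and 7 did not (Mvk, Tm7sf2, Srebf2, Scap, Vldlr, Lpl and Cd36). The lowest and highest log2 fold changes were, among enzymes, -1.10 and 0.072 for Acat2, -0.81 and 0.016 for Hmgcs1, -0.68 and 0.28 for Pmvk, -0.66 and 0.17 for Mvd, -0.82 and 0.029 for Idi1, -0.41 and 0.68 for Fdft1, -0.70 and 0.049 for Sqle, and -0.36 and 0.38 for Lss. They were -0.68 and 0.020 for Cyp51, -0.45 and 0.095 for Msmo1, -0.54 and 0.42 for Nsdhl, -0.67 and 0.070 for Hsd17b7, -0.13 and 0.041 for Ebp, -0.63 and 0.38 for Sc5d, and -0.30 and 0.38 for Dhcr7. Among the others they were -0.98 and 0.23 for Insig1, -0.057 and 0.062 for Insig2, -0.0081 and 0.34 for Stard4, -0.042 and 0.15 for Lrp1, -0.30 and 0.46 for Scarb1, -0.035 and 0.18 for Apoe, -0.29 and 0.26 for Abca1, -0.15 and 0.085 for Abcg1, -0.0024 and 0.18 for Nr1h2, -0.52 and 0.10 for Nr1h3, and -0.046 and 0.25 for Mylip.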

Other observations

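Genes with the smallest p in the companion lists, next to the module in the pathway, were read as well, and 0 of them were called by limma. Among genes that move or store sterol, Osbpl2, an oxysterol-binding lipid carrier, was at 12.6 to 13.1 FPKM in the wild type and at 14.3 to 14.8 FPKM in the heterozygotes. Its groups did not overlap, which held for 1 of the 12 tested genes of its list and for 12.9% of all genes tested. For Osbpl2 limma gave an adjusted p of 0.810 for a log2 fold change of 0.17 (SE 0.08). Nceh1, a hydrolase of cholesterol esters, was at 1.88 ± 0.364 FPKM in the wild type and 2.39 ± 0.179 FPKM in the heterozygotes (SD, n = 3 each). Among genes that turn over the sterol-sensing machinery, Rnf145, a ubiquitin ligase of the endoplasmic reticulum, was at 9.91 ± 0.651 and 8.70 ± 0.503 FPKM, and Erlin2, which takes part in the same degradation, at 9.63 ± 0.784 and 10.8 ± 0.579 FPKM.

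The LXR targets Arl4c (1.83 ± 0.265 FPKM in the wild type and 2.11 ± 0.198 FPKM in the heterozygotes) and Lpcat3 (16.9 ± 3.10 and 19.3 ± 7.52 FPKM) overlapped between the groups. So did Lbr, a sterol reductase of the nuclear envelope, at 9.38 ± 1.90 and 8.59 ± 2.33 FPKM, and Cyb5r3, the reductase that feeds electrons to sterol oxidases, at 130.1 ± 13.7 and 119 ± 27.9 FPKM. Both of these were lowest in heterozygote 2, where most enzymes of the module were highest.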
